A study of Mus musculus with 5 samples.

Results

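HSF1 peaks inside the bodies of shorter protein-coding genes were described in mouse cortical neurons, before and after NMDA. A peak belonged to this set when its summit lay inside 1 or more GRCm38 protein-coding genes that were all shorter than 200 kb and more than 1000 bp from the end of any protein-coding gene. Peaks inside Top2b and Cwc22 were left out. The set held 805 of the 3316 peaks of the control list and 824 of the 3646 peaks of the NMDA list, 1629 of 6962 in all. HSF1 was mapped by chromatin immunoprecipitation and sequencing in wild-type primary cortical neurons, taken from Swiss-Webster embryos at embryonic day 16 and cultured to day 13. Control neurons had no treatment (2 ChIP libraries). NMDA neurons had a bath of 50 µM NMDA for 10 min and then 20 min without drug (2 ChIP libraries), and 1 input library of unprecipitated chromatin came from untreated neurons. The cultures are named as cortical neurons, and no measure of marker expression was analysed here.

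HSF1 is the main transcription factor of the heat shock response. It binds DNA as a trimer at heat shock elements, which are runs of the unit GAA and its complement TTC in alternating direction, and its best known targets are chaperone genes. Binding within a gene body can lie at an alternative promoter or an intronic enhancer, or at a site with no known role. NMDA opens a calcium-permeable class of glutamate receptors, and the calcium that enters switches on activity-regulated genes in neurons.

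Each condition is represented by 1 peak list that combines its libraries, which leaves no replicate error for any value and allows no test between the conditions. Fold enrichment is the authors' value for a peak, the ChIP signal at the summit over background, and each list has its own scale. Library depth is unknown. Exact 95% intervals cover counting error over peaks only, and the share that a count of 0 allows is given as 3 counts of the total, which is also counting error only. More cells bound and stronger binding per cell cannot be told apart in bulk chromatin.

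Sequence could be read at the few peaks of the set that meet a promoter window, and it is shown first for those where the search for a heat shock element bears on the result. Genome sequence was at hand only for RefSeq promoter windows (GRCm38.p6), which run from 250 bases before a transcript start to 50 bases after it. Inside the studied gene bodies 5334 such windows marked internal transcript starts. A peak of the set overlapped a window in 36 cases in the control list (4.47%, 95% interval 3.15 to 6.14%) and in 24 cases in the NMDA list (2.91%, 1.87 to 4.30%). The windows covered 0.262% of the gene body sequence, and 1.86% of the control summits and 1.09% of the NMDA summits lay in one. The element searched on both strands was 3 alternating units, meaning GAANNTTC followed by NNGAA, or the reverse complement of that run. It stood in the windows of 3 of the 24 NMDA peaks and of 0 of the 36 control peaks, a count that allows a share of up to 8.33%. Over all 32585 promoter windows 0.608% held it. Among peaks of any position that overlapped a window, 4 of 246 control peaks and 11 of 197 NMDA peaks had it. The 3 sites lay within their peaks, in windows of Mga, Pafah1b2 and Gm52243. The last of these is a start inside Meltf. Counting only the window nearest to each summit, 2 of the 24 NMDA peaks had the element.

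The 250 bases before each start are printed 5′ to 3′ on the strand of the gene, with the 3-unit element in capitals for Mga (chr2:119896978-119897227, plus strand), Pafah1b2 (chr9:45985395-45985644, minus strand) and Gm52243 (chr16:31897245-31897494, minus strand). Dnajb4 (chr3:152193846-152194095, minus strand) and Zfand6 (chr7:84679397-84679646, minus strand) are shown for a pair of inverted units, also in capitals. Rtn1 (chr12:72236728-72236977, minus strand) is shown as the window of highest fold, and Ift46 (chr9:44772759-44773008, plus strand) as a site with the same summit in both lists. Neither of these last windows held a match in the 250 bases.
Mga: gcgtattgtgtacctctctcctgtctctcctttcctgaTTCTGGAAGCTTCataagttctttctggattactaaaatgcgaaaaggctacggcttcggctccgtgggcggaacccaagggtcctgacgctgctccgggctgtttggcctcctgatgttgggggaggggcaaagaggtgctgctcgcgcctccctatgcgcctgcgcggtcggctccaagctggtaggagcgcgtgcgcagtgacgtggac
Pafah1b2: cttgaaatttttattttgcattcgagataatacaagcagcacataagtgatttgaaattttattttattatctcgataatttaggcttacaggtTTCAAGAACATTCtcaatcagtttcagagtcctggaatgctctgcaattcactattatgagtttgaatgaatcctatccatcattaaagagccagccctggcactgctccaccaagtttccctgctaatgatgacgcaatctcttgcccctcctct
Gm52243: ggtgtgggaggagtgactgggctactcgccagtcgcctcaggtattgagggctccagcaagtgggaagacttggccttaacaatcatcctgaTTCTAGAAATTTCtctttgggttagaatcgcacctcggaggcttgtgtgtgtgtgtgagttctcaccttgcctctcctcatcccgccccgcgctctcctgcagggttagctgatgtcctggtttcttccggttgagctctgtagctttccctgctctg
Dnajb4: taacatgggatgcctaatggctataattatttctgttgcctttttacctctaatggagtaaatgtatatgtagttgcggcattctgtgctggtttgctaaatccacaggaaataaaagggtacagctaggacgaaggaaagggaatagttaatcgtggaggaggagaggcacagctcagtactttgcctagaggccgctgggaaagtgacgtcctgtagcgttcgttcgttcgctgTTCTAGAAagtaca
Zfand6: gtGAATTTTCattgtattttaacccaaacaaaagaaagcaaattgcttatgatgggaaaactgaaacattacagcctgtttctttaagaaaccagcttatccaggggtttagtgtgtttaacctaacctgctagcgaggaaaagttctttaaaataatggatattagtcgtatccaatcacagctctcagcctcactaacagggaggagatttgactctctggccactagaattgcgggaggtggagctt
Rtn1: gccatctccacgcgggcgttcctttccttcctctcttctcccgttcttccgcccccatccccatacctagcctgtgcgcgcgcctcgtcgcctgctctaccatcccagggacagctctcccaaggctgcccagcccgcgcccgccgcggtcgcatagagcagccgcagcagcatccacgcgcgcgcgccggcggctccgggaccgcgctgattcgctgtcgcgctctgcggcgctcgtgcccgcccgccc
Ift46: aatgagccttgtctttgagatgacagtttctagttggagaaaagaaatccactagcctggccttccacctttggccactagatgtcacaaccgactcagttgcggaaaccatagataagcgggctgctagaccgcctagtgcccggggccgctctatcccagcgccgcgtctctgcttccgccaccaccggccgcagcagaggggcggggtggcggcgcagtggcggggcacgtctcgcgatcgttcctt

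The NMDA peak at Mga, which encodes a partner of the transcription factor MAX, had 3.23-fold enrichment, and its summit was 80 bp from the centre of the element. At Pafah1b2, a catalytic subunit of platelet-activating factor acetylhydrolase, the NMDA peak had 2.59-fold and its summit was 21 bp from the element. At the start inside Meltf, the gene of melanotransferrin, the values were 3.12-fold and 80 bp. None of these 3 sites had an overlapping control peak, and of all 824 NMDA peaks of the set 2.06% had one. Dnajb4 encodes an HSP40 cochaperone, and its NMDA peak (2.72-fold) lay at an internal start. Its inverted pair of units, TTCTAGAA, was centred 10 bases before the start and 262 bp from the summit, outside the peak. In the control list the pair GAATTTTC in the window of Zfand6, a zinc finger protein gene, was 4 bp from the summit of a 2.71-fold peak. An inverted pair of either kind (GAANNTTC or TTCNNGAA) stood in the windows of 4 of 36 control peaks and 5 of 24 NMDA peaks, and in 15.1% of all windows. All 3 windows with 3 units are counted among these 5. TGANTCA, the AP-1 site, stood in 3 control and 2 NMDA cases against 7.85% of all windows, and TGACGTCA, the full cAMP response element, in 1 and 0 cases against 1.80%.

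Rtn1 encodes a reticulon of the endoplasmic reticulum that neurons express strongly. Its NMDA peak had 6.88-fold enrichment, with its summit 327 bp before an internal start. Ift46, a component of intraflagellar transport, had 3.08-fold (control) and 2.47-fold (NMDA). In both lists the summit was at the same base, 43 bp after the internal start. Gne, which encodes an enzyme of sialic acid synthesis, held the only other internal start with overlapping peaks of both lists, at 2.77-fold and 2.80-fold.

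Strong peaks were more numerous in the NMDA list inside shorter genes, and likewise at gene ends, between genes and in longer genes. Of the 824 NMDA peaks 38 reached 4-fold (4.61%, 95% interval 3.28 to 6.28%), a share near the 4.99% of all NMDA peaks. Of the 805 control peaks 0 did, which allows a share of up to 0.373%, against 0.513% of all control peaks. Of the 17 control peaks behind that 0.513%, 10 lay in Top2b or Cwc22, which the rule leaves out. Elsewhere, peaks of at least 4-fold numbered 1 (control) and 35 (NMDA) in genes of 200 kb or more, 3 and 76 between genes, and 3 and 22 at gene ends. The highest NMDA value was 24.3-fold and the highest control value 3.80-fold. The bulk of the folds differed less, with medians of 2.69 and 2.61 and an interquartile range of 2.47 to 3.01 in the NMDA list and 2.41 to 2.88 in the control list. A q below 0.05 was listed for 629 NMDA peaks (76.3%, the same share as the 76.3% of the whole list) and for 533 control peaks (66.2%, against 68.9% of the whole list). Since the lists are scaled separately, ranks within a list were compared too. Of the 100 highest peaks of each list, 25 control peaks and 24 NMDA peaks were of the set, close to the 24.3% and 22.6% that the set makes up of each list. The 4 commonest fold values accounted for 29.4% of the control peaks and 33.6% of the NMDA peaks, so many members of the set are tied.

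**Figure D1:**
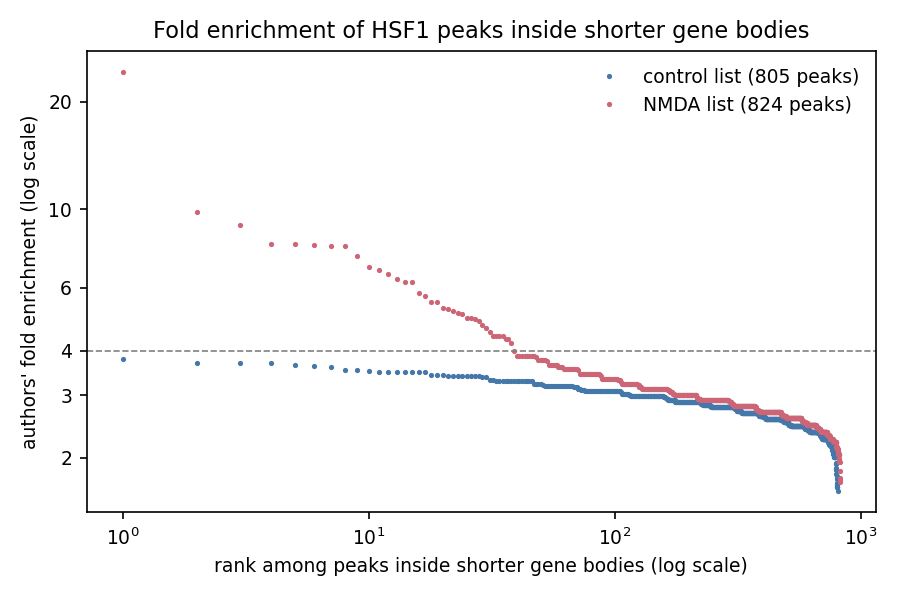
Authors' fold enrichment of each peak inside shorter gene bodies (vertical axis, log scale) against its rank among those peaks (horizontal axis, log scale), for the control list (blue) and the NMDA list (red), with a dashed line at 4-fold. The 38 highest NMDA peaks lie above the line and reach 24.3-fold, and all 805 control peaks lie below it.

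The strongest NMDA peak of the whole list (24.3-fold) lay in this set, inside Cep57l1, a relative of the centrosomal gene Cep57, at chr10:41746125-41747031. It was 907 bp wide, and its summit was 27824 bp from the nearer gene end. Pla2g5, a secreted phospholipase A2, followed with 9.79-fold at chr4:138852905-138853452. Cyfip2, a subunit of the WAVE actin-regulating complex that acts in dendritic spines, had 9.04-fold at chr11:46201575-46202055. Gfpt2, an enzyme of the hexosamine pathway, had 7.96-fold. So did Basp1, which encodes a membrane protein of growth cones and axon terminals. These 5 sites lay 8029 to 27824 bp from any protein-coding gene end.

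Of the remaining 5 highest NMDA peaks, Rufy4 had 7.95-fold and Efr3a, which anchors a phosphatidylinositol kinase at the plasma membrane, had 7.88-fold. Ptpru, a receptor tyrosine phosphatase, had 7.85-fold. Abcg1, a cholesterol transporter, had 7.39-fold, and the Rtn1 peak described above completed the 10. The 10 did not overlap a control peak, and the nearest control summit to any of them was 43675 bp away. Overlap was rare in general, at 2.06% of all 824 NMDA peaks of the set. The median distance to the nearest control summit was 200044 bp for all 824 and 234878 bp for the 10. Among the 38 peaks of at least 4-fold, the peak in Cpa4 overlapped a control peak, and no other did. The 38 lay in 38 different genes. Their median width was 492 bp, against 299 bp for the other NMDA members of the set.

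The control peaks of the set were led by a group of near-equal values. Zfp608, a zinc finger gene expressed in brain, had 3.80-fold. Atp2b1, a plasma membrane calcium pump, Boc, a co-receptor of the hedgehog pathway and of axon guidance, and Gbf1, an exchange factor of the Golgi, each had 3.70-fold. Sybu, an adaptor of kinesin transport in axons, had 3.65-fold, and the protocadherin gene Pcdh10 had 3.62-fold. Hsf1 itself was seventh with 3.60-fold. The last places were held by Dhx35 and 9430038I01Rik with 3.52-fold each and T2 with 3.51-fold. Of the 10, the Hsf1 peak overlapped an NMDA peak, and no other had an NMDA summit within 10 kb. Among all 805 control peaks of the set, 78 (9.69%) had an NMDA summit within 10 kb.

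Few peaks of the set were found in both lists. At least 1 bp of overlap with an NMDA peak was seen for 18 control peaks (2.24%, 95% interval 1.33 to 3.51%), near the 2.90% of the whole control list. The reverse held for 17 NMDA peaks (2.06%, 1.21 to 3.28%), near the 2.61% of the whole NMDA list. The odd control peak was at Bbs12, where the summit of the NMDA partner lay within 1000 bp of a gene end. The summits of the 18 pairs were 0 to 563 bp apart with a median of 98 bp, and 13 pairs were within 200 bp. A reciprocal overlap of 50% was met by 10 peaks of either list. In 11 pairs both peaks had a q below 0.05.

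Among the overlapping pairs, Cpa4, a carboxypeptidase gene, had 2.88-fold (control) and 4.95-fold (NMDA), with summits 47 bp apart. Hsf1 had 3.60-fold and 3.05-fold, with summits 27 bp apart at chr15:76495899-76496149 in the control list. Mef2c, which encodes a transcription factor of activity-dependent synapse regulation, had 3.30-fold and 2.62-fold with summits 323 bp apart. The Wnt receptor gene Ryk had 3.08-fold and 2.80-fold. The chromatin remodeller gene Chd2 had 2.15-fold and 2.63-fold, with summits 563 bp apart. Clasp2, which encodes a microtubule plus-end protein, had values of 2.71-fold and 2.50-fold, and its peaks had 4 bp in common. The other pairs lay in Bbs12, Egflam, Ren1, 4921524J17Rik, Gne, Sall3, Sema4c, Litaf, Ift46, Cdk17, Smad9 and Ankrd28. Over all pairs the control folds ran from 1.61 (Cdk17) to 3.60 and the NMDA folds from 2.22 (Ankrd28) to 4.95.

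**Figure D2:**
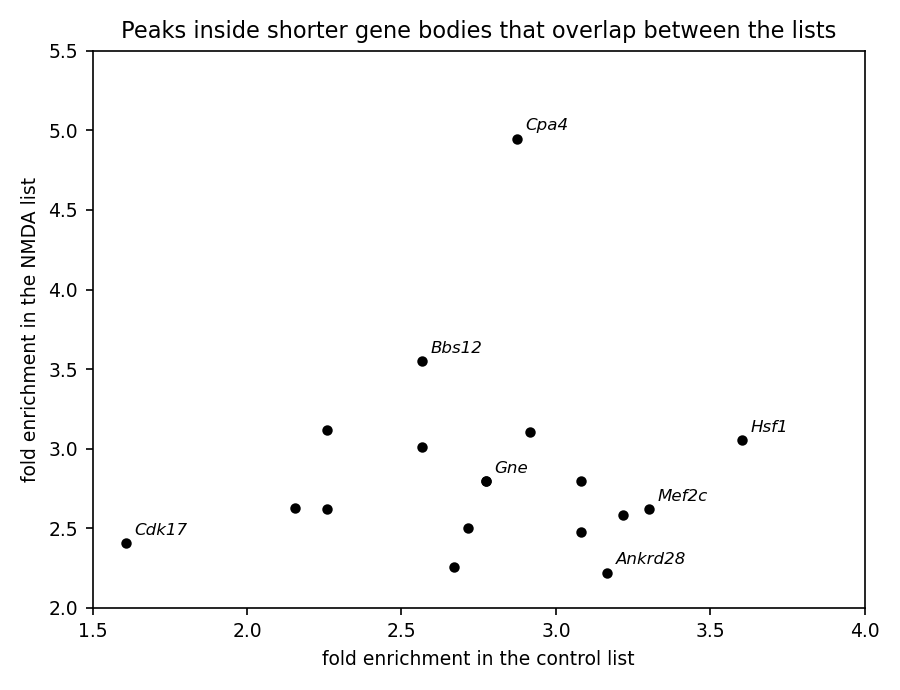
Control fold enrichment (horizontal axis) and NMDA fold enrichment (vertical axis) of the 18 pairs of overlapping peaks at sites inside shorter gene bodies, 1 point per pair, with some genes named. Cpa4 is the highest in the NMDA list (4.95-fold) and Hsf1 the highest in the control list (3.60-fold), the points of Gne and Sall3 coincide, and each list has its own fold scale.

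Peak density varied with the length of the gene. The gene body sequence that the rule covers came to 569 Mb and held 1.41 control peaks per Mb (95% interval 1.32 to 1.52) and 1.45 NMDA peaks per Mb (1.35 to 1.55). Between genes the densities were 0.890 and 1.10, and in genes of 200 kb or more they were 1.49 and 1.76. In genes under 25 kb the control list had 1.37 peaks per Mb (1.14 to 1.63) and the NMDA list 1.16 (0.952 to 1.41). In genes of 25 to 50 kb these were 1.10 and 1.13, in genes of 50 to 100 kb 1.63 and 1.51, and in genes of 100 to 200 kb 1.44 (1.27 to 1.62) and 1.73 (1.55 to 1.93). The intervals of the NMDA list do not overlap between the shortest and the longest of these classes. Those of the control list do, and its highest density was in genes of 50 to 100 kb. The control intervals for 25 to 50 kb (0.923 to 1.31) and 50 to 100 kb (1.44 to 1.83) do not overlap. Those of the NMDA list for these 2 classes (0.946 to 1.34 and 1.33 to 1.71) do. Whether the lists differ in how density varies with gene length was not tested. Over the autosomes the density ranged from 1.05 (chromosome 11) to 1.90 (chromosome 12) for control peaks and from 0.729 (chromosome 8) to 1.99 (chromosome 3) for NMDA peaks. Chromosome X held 1 peak of the set in each list.

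**Figure D3:**
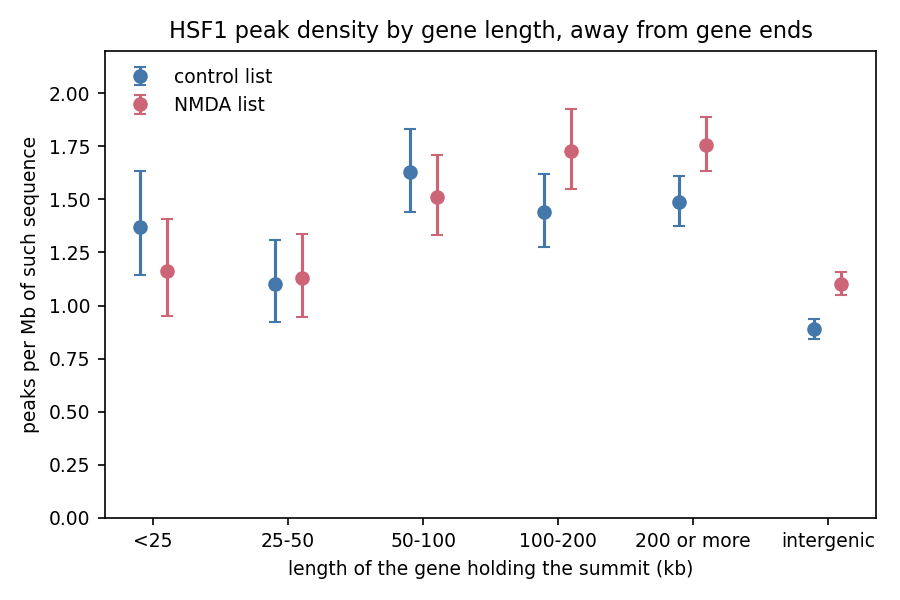
HSF1 peaks per Mb (vertical axis) in sequence more than 1000 bp from protein-coding gene ends, by the length of the gene in kb (horizontal axis) and between genes, for the control list (blue) and the NMDA list (red). Points are densities and bars are exact 95% Poisson intervals. The NMDA list had 1.16 in genes under 25 kb and 1.73 in genes of 100 to 200 kb, and the control list had 1.37 and 1.44.

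Within the gene body, peaks lay toward the start of transcription, and more of the control peaks lay near a gene end. The strand of the gene was known for 652 control and 661 NMDA peaks inside a single gene. Of these, 64.7% of the control peaks (95% interval 60.9 to 68.4%) and 58.2% of the NMDA peaks (54.4 to 62.0%) lay before the midpoint of the gene. The opening 10% of the gene body held 20.2% of the control peaks and 15.3% of the NMDA peaks, where an even spread over the same genes, outside the 1000 bp at either end, would place 7.96% and 8.17%. The closing 10% held 28 and 34 peaks (4.29% and 5.14%). From 1000 to 5000 bp after the start lay 165 control and 115 NMDA peaks, and at the same distance from the other end 46 and 39. The skew was smaller farther in: beyond 5000 bp from any gene end, 57.4% of control and 52.8% of NMDA peaks lay before the midpoint, and the NMDA interval (48.4 to 57.2%) takes in 50%. Exon and intron were not examined.

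**Figure D4:**
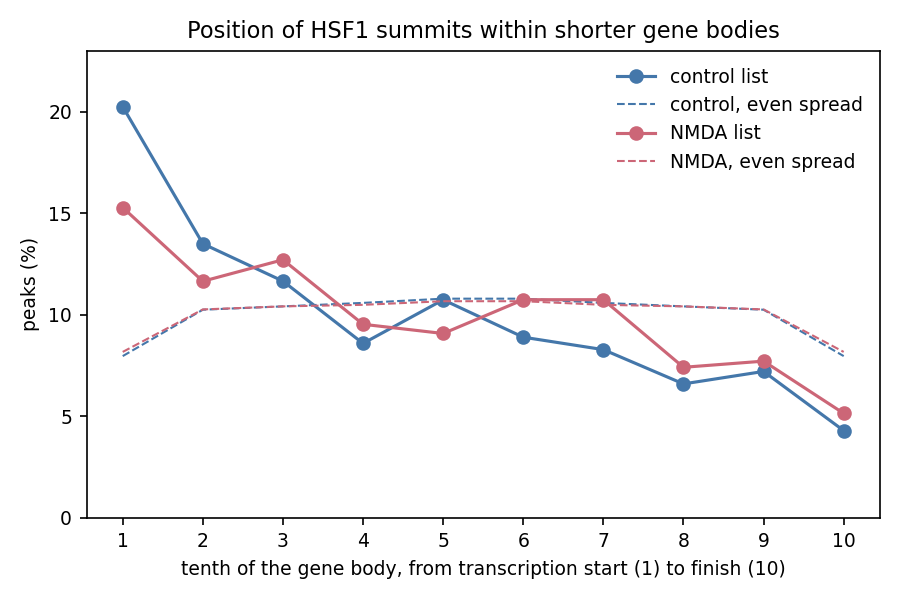
Share of peaks (vertical axis, %) by position of the summit along the gene, in steps of 10% from transcription start to finish (horizontal axis), for the control list (blue) and the NMDA list (red), with dashed lines for an even spread over the same genes. The opening step holds 20.2% of control and 15.3% of NMDA peaks, above the even spread, and the closing step holds 4.29% and 5.14%, below it.

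The distance to the nearer gene end had a median of 11282 bp in the control list and 14648 bp in the NMDA list. Within 5000 bp of an end lay 263 control peaks (32.7%, 29.4 to 36.0%) and 191 NMDA peaks (23.2%, 20.3 to 26.2%). The order of the lists in the share of all peaks turned with this distance. The set made up 24.3% of the control list (95% interval 22.8 to 25.8%) and 22.6% of the NMDA list (21.3 to 24.0%), but 16.3% and 17.4% when only peaks over 5000 bp from an end were counted. Among the NMDA peaks of at least 4-fold, 9 of 29 with known strand (31.0%, 15.3 to 50.8%) lay before the midpoint, and among the weaker NMDA peaks 59.5% (55.6 to 63.3%) did. That split was looked at after the values were seen, and it was not tested. An end of a noncoding gene was within 1000 bp of 35 control and 30 NMDA peaks.

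About as many genes held a peak of the set in either list. Of the 20641 protein-coding genes under 200 kb, 754 held a control peak (3.65%) and 752 an NMDA peak (3.64%), and 125 held both. The 125 are 16.6% of the genes of either list. Their median length was 98.6 kb, against 71.9 kb for the 1381 genes with a peak in at least 1 list. All genes under 200 kb had a median of 16 kb. Longer genes had a peak more often. Among genes under 25 kb, 0.953% held a control peak and 0.784% an NMDA peak, and among genes of 100 to 200 kb 16.5% and 19.6%. Within the longest class, 24.9% of the genes with a control peak also held an NMDA peak, and within the shortest class 9.68%. In 17 of the 125 genes the peaks overlapped. In the other 108 the nearest summits of the lists were 0.654 to 187 kb apart, with a median of 16.8 kb.

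**Figure D5:**
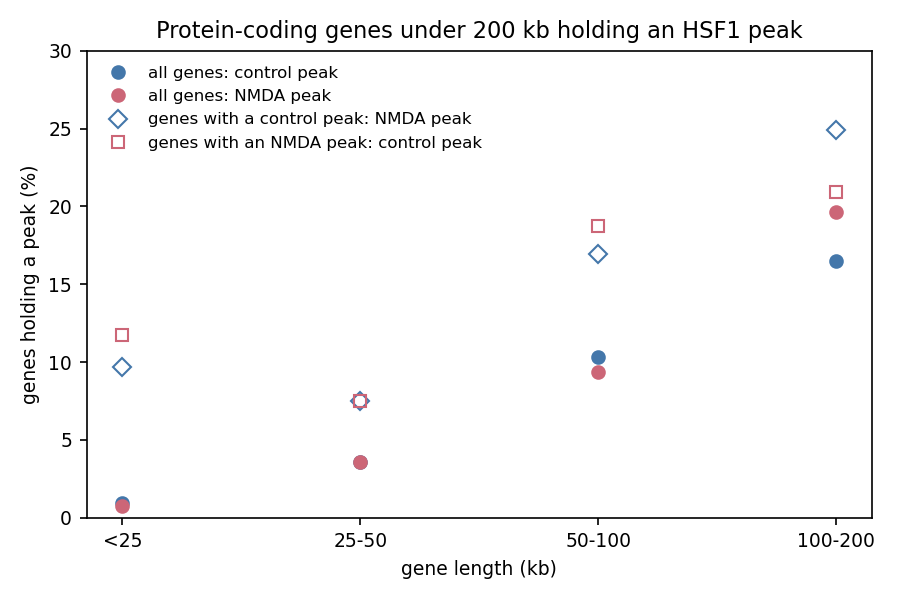
Share of protein-coding genes holding a peak of the set (vertical axis, %) by gene length in kb (horizontal axis). Filled circles are all genes, in blue for control and red for NMDA peaks. Open blue diamonds are the share of genes with a control peak that also hold an NMDA peak. Open red squares are the share of genes with an NMDA peak that also hold a control peak. The share of all genes goes from under 1% in the shortest class to 16.5% (control) and 19.6% (NMDA) in the longest, and the open symbols lie above the filled ones in each class.

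Most genes held a single peak. At least 2 control peaks were held by 57 genes and at least 2 NMDA peaks by 69. Oxct1, an enzyme of ketone body use, held 4 control peaks (2.31- to 2.98-fold) over 91.3 kb and no NMDA peak of the set. The shortest of the 56 control genes with 2 peaks were Ren1, Kctd4, Rnf103 and Zfp229, with values from 2.19-fold to 3.18-fold. In the NMDA list Npas4, an activity-induced transcription factor gene, held 5 peaks over 9.12 kb, from 2.90-fold to 5.81-fold, and no control peak of the set. Rps6ka5 encodes MSK1, a kinase that phosphorylates CREB and histone H3 downstream of MAP kinases. It held 3 NMDA peaks of 3.12-fold, 3.76-fold and 2.50-fold and no control peak of the set. Pdlim5 also held 3 NMDA peaks (2.41- to 2.90-fold) and no control peak of the set. Cpeb2, a regulator of mRNA polyadenylation and translation, held 3 NMDA peaks and 1 control peak. Cep170, a centrosomal gene, held 3 and 2. Among all genes with an NMDA peak of the set, 16.6% also held a control peak, and the reverse share was 16.6%. In genes of 100 to 200 kb, the class of Oxct1, Rps6ka5 and Pdlim5, the shares were 20.9% and 24.9%. Under 25 kb, the class of Npas4, 11.8% of the genes with an NMDA peak also held a control peak.

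A small number of chaperone and cochaperone genes held NMDA peaks of the set, and none held a control peak. Of 85 such genes under 200 kb, 4 held an NMDA peak (4.71%, 95% interval 1.30 to 11.6%) and 0 a control peak, which allows up to 3.53% by the limit of 3 counts. Over all genes under 200 kb the shares were 3.64% (NMDA) and 3.65% (control), and over genes under 25 kb 0.784% and 0.953%. The 4 were the chaperonin subunit gene Cct2 (3.12-fold, 1380 bp from a gene end), Dnajb11 (2.96-fold), an HSP40 of the endoplasmic reticulum, Dnajb4 and Dnajc1 (2.52-fold). Peaks over 5000 bp from a gene end were in 2 of them. The median length of the 85 genes was 16.9 kb, but Dnajc1 (188 kb) and Dnajb4 (28.9 kb) are longer than 25 kb. For NMDA peaks, all genes of 100 to 200 kb gave 19.6% and all genes of 25 to 50 kb 3.61%. Of 15 heat shock factor and ubiquitin genes, Hsf1 alone held a peak, in both lists.

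Immediate early genes, which neurons switch on within minutes of activity, held peaks of the set in both lists. The counts were 3 of 45 genes for control peaks (6.67%, 95% interval 1.40 to 18.3%) and 5 of 45 for NMDA peaks (11.1%, 3.71 to 24.1%). All genes under 200 kb gave 3.65% and 3.64%. The median length of the 45 genes was 7.42 kb, and of all genes under 25 kb 0.953% held a control and 0.784% an NMDA peak. The control genes with a peak were all under 25 kb, but the NMDA genes Rheb and Homer1 were longer. For NMDA peaks, all genes of 25 to 50 kb, the class of Rheb, gave 3.61%. All genes of 100 to 200 kb, the class of Homer1, gave 19.6%. Counting peaks over 5000 bp from a gene end, 1 (control) and 2 (NMDA) of the 45 genes were counted. A gene of the median length or shorter has no position that far from both ends, so it could not be counted. The control genes were Nr4a2 (3.18-fold), an orphan nuclear receptor, Egr2 (2.88-fold), a zinc finger transcription factor, and the clock gene Per1 (2.88-fold). The NMDA genes were Npas4, Fosb (3.01-fold), an AP-1 subunit, Rheb (2.80-fold), an activator of mTORC1, Egr2 (2.69-fold) and the scaffold gene Homer1 (2.56-fold). The NMDA peak in Egr2 had its summit 4 bp before an internal start, and the control peak in that gene lay 1116 bp away from it.

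Genes of neuronal signalling held peaks of the set in both lists. Of 25 receptor and scaffold genes of glutamate and GABA synapses, 3 held a control peak, Shank3 with 2 peaks of 2.98-fold, Gabra4 (2.86-fold) and Gabra5 (2.61-fold). NMDA peaks were in 5 of the 25, Gabra2 (3.12- and 2.80-fold), Homer2 (2.90-fold), the AMPA receptor gene Gria2 (2.87-fold), Grm4 (2.80-fold) and Gabrg1 (2.47-fold). No gene of that group held both. Of all genes of 50 to 100 kb with a control peak, 16.9% also held an NMDA peak. At 100 to 200 kb that share was 24.9%. The counts of 3 and 5 genes are 12% and 20.0% of the group, whose median length was 62.8 kb. All genes of 50 to 100 kb gave 10.3% and 9.35%. The genes with a peak were longer than that median, at 67.2 to 183 kb (control) and 91.4 to 137 kb (NMDA). All genes of 100 to 200 kb gave 16.5% (control) and 19.6% (NMDA). Over 5000 bp from a gene end, 3 of the group had an NMDA peak. Of 26 voltage-gated channel genes, 5 held a control peak, the sodium channel genes Scn1a (2 peaks), Scn2a and Scn3a, the calcium channel subunit gene Cacna2d2 and the potassium channel gene Kcnc2, from 2.16-fold to 2.67-fold. NMDA peaks were in 3 of them, Kcna4 (2.90- and 2.26-fold), Scn3a (2.80-fold) and Kcna2 (2.52-fold). The counts are 19.2% (6.55 to 39.4%) and 11.5% (2.45 to 30.2%) of the group. Its median length was 61.0 kb, beside the same 10.3% and 9.35% of all genes of 50 to 100 kb. The control genes were longer, however, at 110 to 196 kb, and the NMDA genes were 24.1 to 110 kb long. For genes of 100 to 200 kb the shares were 16.5% (control) and 19.6% (NMDA). With a q below 0.05 the control count was 2 of 26, Scn2a and Cacna2d2.

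Among 29 genes of the synaptic vesicle, the control list had Unc13a (3.39-fold), a priming factor of release, and Slc17a6 (2.36-fold), a vesicular glutamate transporter, and the NMDA list had Sv2c (2.68-fold). With a q below 0.05 the control count was 1, Unc13a. Of 31 topoisomerase, break repair and cohesin genes, the control list had the cohesin regulators Wapl (2.46-fold) and Pds5a (2.44-fold). The NMDA list had the break-signalling kinase genes Atm (3.12-fold) and Atr (2.80-fold). Neither control peak had a q below 0.05, which leaves 0 control genes at that threshold. The vesicle group gave 6.90% (control) and 3.45% (NMDA) at a median length of 49.3 kb, and the repair and cohesin group 6.45% in each list at 52.3 kb. All genes of 25 to 50 kb gave 3.61% in each list, and those of 50 to 100 kb 10.3% and 9.35%. Cell type marker genes under 200 kb were 5 of neurons, 6 of astrocytes, 5 of microglia and 6 of the oligodendrocyte lineage. In the control list 0 of them held a peak of the set, and in the NMDA list the astrocyte glutamate transporter gene Slc1a2 did (2.47-fold, with a q above 0.05). The groups had median lengths of 40.7, 35.0, 19.6 and 26.6 kb, in that order. All genes under 25 kb gave 0.953% (control) and 0.784% (NMDA), and those of 25 to 50 kb 3.61% in each list. Slc1a2 is 133 kb long, and all genes of 100 to 200 kb gave 19.6% for NMDA peaks. A peak is no measure of expression, so the marker genes do not show which cells were present.

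Peaks just inside and just outside the limits of the rule had folds in the same range. The control peaks closest under the length limit lay in Bckdhb (199 kb, 2.57- and 2.46-fold), and those closest over it in Plcxd3 (200.1 kb, 2.46-fold) and Ccdc85a (201.6 kb, 2.28-fold). In the NMDA list these were Atp9b (199.9 kb, 3.01-fold) and Sergef (199.7 kb, 2.47-fold), against Pbx3 (200.6 kb, 2.69-fold) and Crb1 (202.7 kb, 3.00-fold). Closest beyond 1000 bp from a gene end were Adora1 (1004 bp, 2.98-fold) and Frat2 (1013 bp, 2.57-fold) in the control list and Gpr85 (1007 bp, 2.80-fold) and Creb1 (1013 bp, 2.82-fold) in the NMDA list. Closest within it were Bicral (990 bp, 2.61-fold) and Chchd4 (984 bp, 2.46-fold), and Igsf9b (975 bp, 2.58-fold) and Zfp617 (966 bp, 3.01-fold).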

How the data were processed

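HSF1 ChIP-seq peak lists of the control and the NMDA condition were analysed. The submitters' processing notes name MACS2, BWA, SAMtools, Trimmomatic and FastQC, with no version, and list mm10 and GRCm38.p6 as builds. For the merging of the 2 libraries of a condition, the method was not given in the sources used here. Deposited lists hold, per peak, a score, a fold enrichment (a linear ratio of ChIP signal over background) and the −log10 of p and q as the authors computed them, with the summit position. The score and p were not used. Depth per library is unknown.

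Genes came from a RefSeq table of GRCm38.p6 (21631 protein-coding genes, autosomes and X), and strand and sequence from RefSeq promoter windows of 300 bases. On opposite strands, 1663 of 1663 overlapping window pairs read the same bases. Peak, overlap and class counts were computed in Python 3.11.15 with pandas 2.3.3, and exact Clopper-Pearson or Poisson 95% intervals with SciPy 1.17.1. The class and overlap code was tested on simulated data. Named items were the 10 highest peaks per list, overlapping pairs, the 5 genes with most peaks, genes of 11 fixed groups, and peaks next to the limits. Of 86 chaperone genes matched, 85 are under 200 kb. The members and lists were chosen with earlier results of these data known. A planned motif search in 301 bp around summits was replaced by promoter windows, as genome sequence was not used here.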

Additional observations from a re-analysis of the deposited data

How the results depend on the processing

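Shares, counts and gene numbers were recomputed under other settings, without tests. The set made up 16% of the control list and 13.6% of the NMDA list with a length limit of 100 kb, and 28.8% and 26.9% with 300 kb. Over 500 bp from a gene end it made up 28.0% and 24.6%, and over 5000 bp 16.3% and 17.4%, where the order of the lists turned. Among peaks of at least 4-fold it was 0% and 20.9%. A threshold of 3-fold was passed by 14.2% of control and 25.6% of NMDA members. Peaks counted as found in both lists were 10 in each with a reciprocal overlap of 50%, 31 and 33 within 1000 bp of a peak of the other list, and 11 and 10 with a q below 0.05 in both. Why these values changed was not tested.

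With a q below 0.05, the control list kept 1 synaptic vesicle gene, 2 channel genes and 0 break repair and cohesin genes, and the NMDA list 0 astrocyte markers. Over 5000 bp from a gene end, 1 immediate early gene had a control peak, and NMDA peaks were in 2 chaperone genes, 2 immediate early genes and 3 receptor and scaffold genes. Immediate early genes of their median length (7.42 kb) or shorter have no position that far from both ends. The share before the midpoint at that distance, a setting chosen after seeing the data, was 57.4% and 52.8%. The motif searches in windows of other sizes need genome sequence and were not run. Leaving out a library was not possible because each list combines its libraries. No paired analysis was possible because neither list separates its replicates. Library depth is unknown, and its bearing on these counts was not tested.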

Other observations

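One NMDA peak of the set overlapped a microRNA hairpin, Mir5619 inside Nudt9 (2.90-fold, chr5:104047878-104048165). Among neighbouring peaks of the same gene, 19 of 59 control distances and 26 of 76 NMDA distances were under 10 kb, with medians of 32.6 kb and 18.8 kb.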
